A study of Mus musculus with 12 samples.

Results

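The RNA of mouse embryos was compared between injection of an siRNA against Tdgf1 and injection of a negative control siRNA, over 5 of 6 pairs of libraries, selected on the measured level of Tdgf1, which was lower with its own siRNA in these 5. A pair is the Tdgf1 siRNA library and the control library of the same stage and the same number, and the 5 pairs hold 10 of the 12 libraries of the series. The Tdgf1 siRNA libraries came from 2 morula samples (pairs M1 and M2), 1 early blastocyst sample (EB1) and 2 late blastocyst samples (LB1 and LB2), and the control libraries from the same stages and numbers. The remaining pair, EB2, was left out because Tdgf1 in its Tdgf1 siRNA library was not below its control, and its values are given beside many of the results. All embryos were of the outbred CD1 stock, and all had received GFP mRNA together with the siRNA as zygotes, so the controls carried an injection and a foreign RNA too. The number of embryos in each library and the number of different siRNAs against Tdgf1 are not given in the sources used here. Because the labels do not say that same-stage libraries came from separate batches of embryos, a p-value speaks only of the spread among these libraries, and that spread may be technical.

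Tdgf1 encodes Cripto, a small protein held on the outer face of the cell membrane. Cripto lets the ligand Nodal, a member of the TGF-beta family, signal through activin receptors to Smad proteins and their partner Foxh1. In the mouse blastocyst Tdgf1 is expressed in the inner cell mass, which divides into the epiblast, the source of the fetus, and the primitive endoderm, which lines the cavity, while the trophectoderm forms the outer wall and later the placenta.

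Tdgf1 (chr9:110939603-110946158, minus strand, GRCm38) chose the pairs, so its levels are given as a description, and its p-values in the fits over all genes are not given as results. Levels are in CPM, a gene's reads scaled to a common library size and not to gene length, and where 5 values follow each other they are in the order M1, M2, EB1, LB1 and LB2. Tdgf1 stood at 15.5, 10.98, 9.27, 49.5 and 70.8 CPM with Tdgf1 siRNA, against 29.4, 23.4, 21.7, 97.3 and 84.6 CPM with control siRNA. The Tdgf1 siRNA libraries therefore held 52.8%, 46.99%, 42.6%, 50.9% and 83.6% of the control level. Within a pair the Tdgf1 siRNA library was the lower one by the rule, but the late blastocyst siRNA libraries still held more Tdgf1 than the morula and early blastocyst controls. LB2, at 83.6%, lay just inside the rule, and EB2, at 116.5% (15.2 CPM with Tdgf1 siRNA and 13.1 CPM with control siRNA), lay just outside it. A share of the control level can stand for fewer cells that express a gene or for less of its RNA per cell, and in these bulk samples the 2 cannot be told apart, here and for every gene below.

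**Figure D1:**
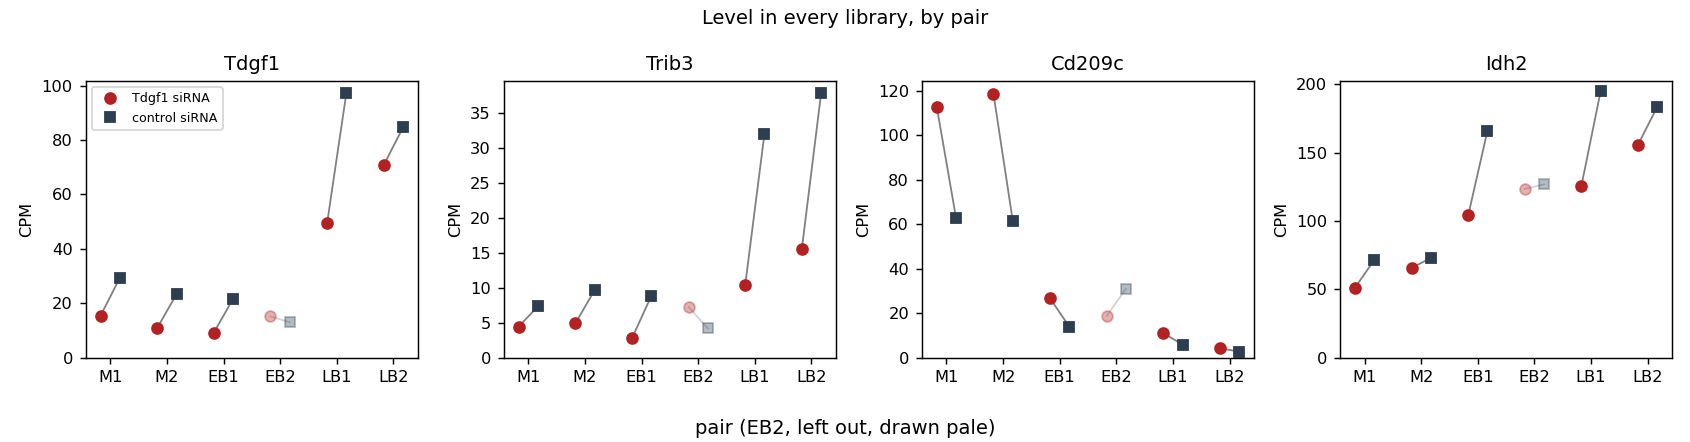
Levels in CPM of Tdgf1, Trib3, Cd209c and Idh2 in each library, with the Tdgf1 siRNA library left of its control in each pair and pair EB2 drawn pale. Tdgf1, Trib3 and Idh2 lie lower and Cd209c higher in the Tdgf1 siRNA library of the 5 pairs used, and in EB2 Tdgf1, Trib3 and Cd209c lie the other way.

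Tested over all genes with the pair as the unit, no gene passed. Limma, a linear model that shares information on the spread between genes, was run on the 5 within-pair differences on a log2 scale, with 1 deposited unit (3.582 CPM) added to each value, which understates the change of low genes. It called 0 of 10751 genes (0%) at a Benjamini-Hochberg adjusted p under 0.05, and 960 genes (8.93%) had an unadjusted p under 0.05, 605 of them (5.63%) higher and 355 (3.3%) lower with Tdgf1 siRNA. The same sign in all 5 pairs was seen for 998 genes (9.28%), of which 606 (5.64%) were higher and 392 (3.65%) lower. On whole reads recovered from the deposited values, with the pair as a block, edgeR's quasi-likelihood test called 4 genes (0.0372%), 1 higher (0.0093%) and 3 lower (0.0279%), and DESeq2 called 12 genes (0.112%), 6 higher (0.0558%) and 6 lower (0.0558%), in both cases with Tdgf1 among them. Without Tdgf1, which was lower by the choice of the pairs, 3 genes are left with edgeR, 1 higher and 2 lower, and 11 with DESeq2, 6 higher and 5 lower. With EB2 added, limma called 0 genes, and 956 (8.89%) had an unadjusted p under 0.05. The genes below are therefore described by their values, and a gene that passed with edgeR or DESeq2 is named as such.

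The pairs had little in common as whole profiles. Across the tested genes, the within-pair differences of 2 pairs correlated at -0.01 to 0.17 (Pearson, median 0.04 over 10 combinations), a description over genes, which are not independent. EB2 correlated with the 5 pairs at -0.06 to 0.08. Of the 606 genes higher in all 5 pairs, 347 (57.3%) were also higher in EB2, where 51.1% of all tested genes were higher. Of the 392 genes lower in all 5 pairs, 192 (49.0%) were also lower in EB2, where 48.9% of all tested genes were lower. The first principal component of all libraries, which held 70.8% of the variance and followed stage, stood at 46.9 in the Tdgf1 siRNA library of LB1 and at 60.5 in its control, the widest gap within a pair. In the other 4 pairs used the gap was -4.81 to 1.99, so LB1 is given apart where a result rests on it, and the part of this gap in those results was not tested.

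Among lists with more than 3 tested members, the integrated stress response had the largest share of members with an unadjusted p under 0.05 on the lower side. This response is run by the transcription factor ATF4, which is made when amino acids are short, when proteins misfold in the endoplasmic reticulum or when double-stranded RNA is sensed, and which switches on amino acid synthesis, amino acid transport and tRNA charging. Of the 39 listed ATF4 targets, 32 could be tested. Of these, 0 passed the adjusted threshold, 10 had an unadjusted p under 0.05, all of them lower (31.2%, against 3.3% of all genes), and 6 were lower in all 5 pairs (18.8%, against 3.65%). The mean difference was negative for 26 members and positive for 6, where of all 10751 genes tested it was negative for 5020 and positive for 5731. The list median was -0.16, against 0.01 for all genes.

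Trib3 (chr2:152337422-152344032, minus strand) encodes a pseudokinase that is induced by ATF4 and holds it back in turn. It stood at 4.49, 4.94, 2.79, 10.5 and 15.6 CPM with Tdgf1 siRNA, against 7.37, 9.69, 8.85, 32.1 and 37.9 CPM with control siRNA. It was lower in each pair, at between 0.32 and 0.61 of its control, and among M1, M2 and EB1 no Tdgf1 siRNA library reached the lowest control. The mean log2 difference was -0.90 (SD 0.36 over 5 pairs, SE 0.15, limma adjusted p = 0.0741). Trib3 passed with edgeR (log2 change -1.28, adjusted p = 0.0379) and with DESeq2 (adjusted p = 1.38e-05), and over all alternatives its adjusted p lay between 1.38e-05 and 0.736. In EB2 it went the other way, at 7.27 CPM with Tdgf1 siRNA and 4.21 CPM with control siRNA, and with all 6 pairs its mean was -0.67 (adjusted p = 0.315).

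Herpud1 (chr8:94386438-94395377, plus strand), which encodes a membrane protein of the endoplasmic reticulum that takes part in clearing misfolded proteins, stood at 7.85, 5.22, 12.1, 19.4 and 30.98 CPM with Tdgf1 siRNA and 8.86, 12.3, 12.8, 61.6 and 61.8 CPM with control siRNA. The difference was large in M2 and at late blastocyst and small in M1 and EB1. Its mean log2 difference was -0.69 (SE 0.18, adjusted p = 0.320), and in EB2 it was -0.22. Jdp2, which encodes a repressor of the AP-1 and ATF family, stood at 2.76, 1.28, 6.81, 8.64 and 13.4 CPM with Tdgf1 siRNA and 3.83, 3.71, 10.7, 27.5 and 15.04 CPM with control siRNA (log2 -0.55, adjusted p = 0.413). Jdp2 is low in morulae, so its differences there rest on few reads. The other members lower in all 5 pairs were Cars, the cysteine tRNA synthetase (log2 -0.36), Psph, the last enzyme of serine synthesis (log2 -0.32), and Ddit4, an inhibitor of mTOR that is also a p53 and hypoxia target (log2 -0.39).

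The differences of the list were widest at late blastocyst. Its median log2 difference was 0.04 in M1, -0.10 in M2, -0.04 in EB1, -0.47 in LB1, -0.15 in LB2 and -0.06 in EB2, and without LB1 the median of the means was -0.08. Pycr1, which makes proline, gave 0.03, 0.05, -0.26, -1.92 and -0.71, Mthfd2, a mitochondrial folate enzyme, gave 0.11, -0.19, -0.04, -1.30 and -0.63, and Nupr1, a stress-induced nuclear protein, gave -0.36, -0.11, -0.06, -2.88 and 0.28 as log2 differences. For these 3 genes LB1 held the lowest value. Atf4 itself stood at 159.9, 148, 149, 185 and 239 CPM with Tdgf1 siRNA and 132, 169, 139.9, 257 and 279 CPM with control siRNA, a mean log2 difference of -0.11 (adjusted p = 0.777). Its groups overlapped, and its sign varied between pairs.

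**Figure D2:**
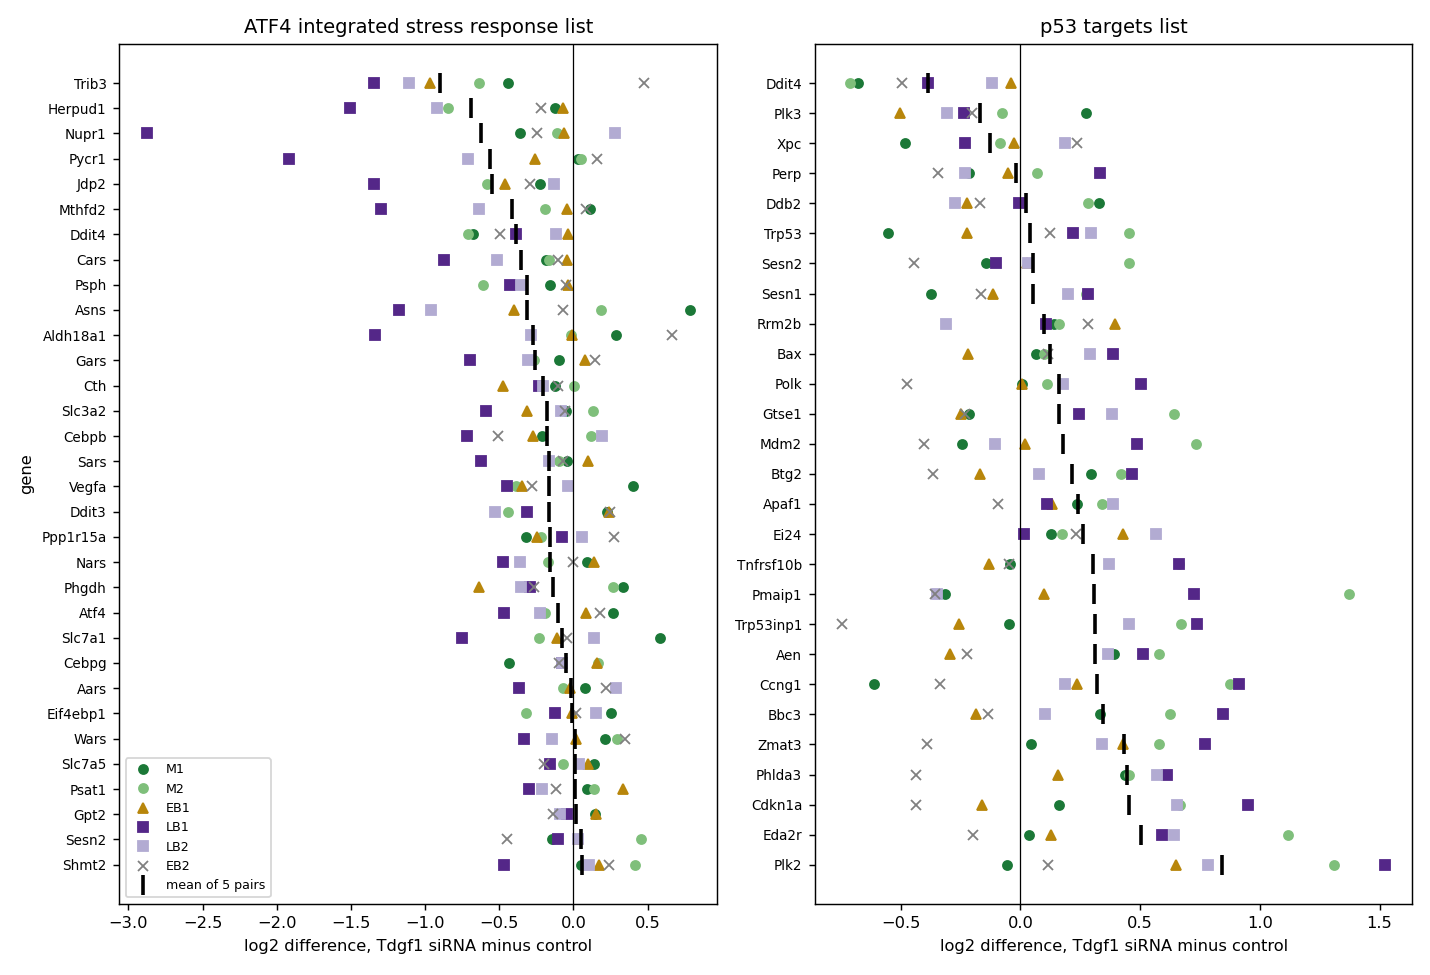
Log2 difference, Tdgf1 siRNA minus control, of each tested ATF4 target (left) and p53 target (right) in every pair, with a bar at the mean of the 5 pairs and crosses for EB2. Most ATF4 targets lie left of 0 at late blastocyst, and most p53 targets lie right of 0 in M2, LB1 and LB2 and left of 0 in EB2.

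The promoters of Trib3, Herpud1 and Jdp2, lower in all 5 pairs, and of Asns, an ATF4 target whose difference had opposite signs at morula and late blastocyst, are shown because each holds the core of the element bound by ATF4 with a C/EBP partner. The window runs from 250 bases before to 50 bases after the start given by RefSeq (GRCm38.p6), 5′ to 3′ on the gene's strand, and capitals mark the match to TGATGNAA or to its reverse complement TTNCATCA. The windows are Trib3 chr2:152344011-152344310, minus strand, Herpud1 chr8:94386179-94386478, plus strand, Jdp2 (the second of 3 listed starts) chr12:85599166-85599465, plus strand and Asns chr6:7693160-7693459, minus strand.
Trib3: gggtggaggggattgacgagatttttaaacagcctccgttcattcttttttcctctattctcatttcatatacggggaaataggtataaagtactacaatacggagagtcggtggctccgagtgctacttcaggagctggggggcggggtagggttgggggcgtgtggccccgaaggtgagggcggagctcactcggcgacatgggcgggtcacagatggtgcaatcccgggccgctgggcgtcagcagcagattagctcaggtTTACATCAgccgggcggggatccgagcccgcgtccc
Herpud1: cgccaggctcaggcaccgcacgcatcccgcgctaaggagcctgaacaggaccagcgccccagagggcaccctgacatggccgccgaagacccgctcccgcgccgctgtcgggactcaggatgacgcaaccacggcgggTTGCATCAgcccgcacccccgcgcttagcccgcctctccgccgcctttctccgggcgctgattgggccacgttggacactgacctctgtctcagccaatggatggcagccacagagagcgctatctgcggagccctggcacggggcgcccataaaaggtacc
Jdp2: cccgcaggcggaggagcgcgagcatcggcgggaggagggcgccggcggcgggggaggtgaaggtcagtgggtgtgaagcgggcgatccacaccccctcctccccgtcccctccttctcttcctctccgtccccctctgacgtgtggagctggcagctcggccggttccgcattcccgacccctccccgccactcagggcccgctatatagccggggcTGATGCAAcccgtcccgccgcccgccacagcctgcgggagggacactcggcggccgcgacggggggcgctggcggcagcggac
Asns: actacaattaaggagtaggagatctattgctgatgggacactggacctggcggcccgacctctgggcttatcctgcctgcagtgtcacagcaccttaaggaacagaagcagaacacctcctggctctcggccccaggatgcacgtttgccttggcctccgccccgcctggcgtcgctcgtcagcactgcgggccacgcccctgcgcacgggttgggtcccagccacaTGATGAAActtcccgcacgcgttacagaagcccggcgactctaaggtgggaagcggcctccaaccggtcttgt

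The match begins 14 bases past the RefSeq start in Trib3, and 112, 33 and 23 bases before it in Herpud1, Jdp2 and Asns. In GENCODE M21 the Trib3 gene begins at 152344032, downstream of the match. The end of the Trib3 window was in no GENCODE transcript of the gene, unlike the ends of the other windows shown. Of 27025 genes with a promoter in the table, 1219 (4.51%) held a match on either strand. Of the 32 listed ATF4 targets found in the table, 12 (37.5%) did, and of the 6 members lower in all 5 pairs, 5 were found in the table and 3 held a match. ATF4 targets are in part known by this element, and a match in the letters is a description, not a site.

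Targets of p53 tended to the other side. The p53 protein responds to DNA damage and other stress by halting the cell cycle, aiding repair and starting cell death. Of the 31 listed targets 27 could be tested, and 0 passed the adjusted threshold. At an unadjusted p under 0.05, 9 were higher (33.3%, against 5.63% of all genes) and 1, Ddit4, was lower (3.7%, against 3.3%). Higher in all 5 pairs were 6 members (22.2%, against 5.64%), namely Phlda3, Eda2r, Zmat3, Ei24, Apaf1 and Polk, and the median difference was 0.22.

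Phlda3, which encodes an inhibitor of Akt, stood at 29.7, 29.3, 19.9, 58.4 and 61.7 CPM with Tdgf1 siRNA, against 20.996, 20.4, 17.5, 36.9 and 40.3 CPM with control siRNA. The Tdgf1 siRNA library was higher in every pair, and within the morula and the late blastocyst stage the groups did not overlap. The mean log2 difference was 0.45 (SE 0.11, limma adjusted p = 0.274). Plk2, a kinase of the cell cycle, stood at 11.99, 36.2, 4.10, 20.7 and 10.7 CPM with Tdgf1 siRNA and 12.6, 12.4, 1.32, 4.86 and 4.71 CPM with control siRNA. It was higher in 4 of 5 pairs, by 2.27 to 4.26 times, and about level in M1. Its mean was 0.84 (SE 0.19, adjusted p = 0.234), and it passed with DESeq2 (adjusted p = 0.0215) but not with edgeR (adjusted p = 0.328), with 0.0215 to 0.84 over all alternatives. In EB2 it was 0.12.

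Cdkn1a, the gene of p21, a brake on cyclin-dependent kinases, stood at 168, 181, 82.8, 123 and 126 CPM with Tdgf1 siRNA and 150.1, 113, 92.8, 62.2 and 78.8 CPM with control siRNA. It was lower in EB1 and higher in the other 4 pairs (log2 0.45, adjusted p = 0.355). Eda2r, a receptor of the TNF receptor family, gave log2 differences of 0.04, 1.12, 0.13, 0.59 and 0.64, and Zmat3, an RNA-binding protein, gave 0.04, 0.58, 0.43, 0.77 and 0.34. The list median by pair was 0.00 in M1, 0.45 in M2, -0.04 in EB1, 0.47 in LB1 and 0.20 in LB2, so M2 and LB1 carried most of it. In EB2 it was -0.22, with Phlda3 at -0.44 and Cdkn1a at -0.43, and with all 6 pairs the median was 0.13.

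Both chains of ferritin, the iron store, were higher in all 5 pairs, and the members of the wider antioxidant list with an unadjusted p under 0.05 were all higher. Ftl1, the light chain of ferritin, stood at 3917, 3802, 7787, 6404 and 7641 CPM with Tdgf1 siRNA, against 2851, 3586, 6072, 4846 and 5225 CPM with control siRNA. It was higher in every pair, and in EB2 too, at 5771 CPM with Tdgf1 siRNA and 5163 CPM with control siRNA. Its mean log2 difference was 0.37 (SE 0.09, limma adjusted p = 0.235). Ftl1 passed with DESeq2 (adjusted p = 0.0215), and over all alternatives its adjusted p was 0.0215 to 0.84. Fth1, the heavy chain, stood at 2502, 2746, 2871, 1859 and 1508 CPM with Tdgf1 siRNA and 1916, 2145, 2359, 1509 and 1457 CPM with control siRNA (log2 0.27, adjusted p = 0.389), higher in all 5 pairs and at -0.07 in EB2.

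Of the 25 tested members of the antioxidant list, which holds targets of the transcription factor NRF2, 0 passed. Higher in all 5 pairs were 3 members (12%, against 5.64% of all genes), and the mean was positive for 18 and negative for 7. At an unadjusted p under 0.05, 7 were higher (28%, against 5.63% of all genes) and 0 lower (against 3.3%). Besides the ferritins these 7 were Txnrd1, a thioredoxin reductase (log2 0.32), Pgd, an NADPH-making enzyme (0.17), Srxn1 (0.29), the glutathione synthesis gene Gclm (0.20) and the heme oxygenase gene Hmox1 (0.39). Hmox1 gave 1.30, 0.90, -0.04, 0.07 and -0.29, so its high values lay in the morula pairs. The list median was 0.07, with -0.15 in LB2 and 0.30 in LB1.

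Genes of the endoplasmic reticulum were divided. Of 22 tested, 3 were higher (13.6%, against 5.63% of all genes) and 6 lower (27.3%, against 3.3%) at an unadjusted p under 0.05, 0 passed the adjusted threshold, and Herpud1 is shared with the ATF4 list. The lower ones besides Herpud1 were the disulfide isomerases Pdia4 (log2 -0.29, lower in 5 of 5 pairs), Pdia6 (-0.24) and Pdia3 (-0.27), the chaperone Hsp90b1 (-0.29) and the transcription factor gene Xbp1 (-0.35). The higher ones were Syvn1 (0.37, 5 of 5 pairs) and Sel1l (0.26), which form the complex that exports misfolded proteins, and the stress sensor gene Ern1 (0.43, 5 of 5 pairs).

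Among single genes outside the lists, Cd209c (chr8:3940222-3954746, minus strand), a C-type lectin of the DC-SIGN family, had the smallest p on the higher side. It stood at 113, 119, 26.7, 11.1 and 4.32 CPM with Tdgf1 siRNA, against 62.7, 61.7, 13.97, 5.96 and 2.78 CPM with control siRNA. It was higher in every pair, by 1.56 to 1.92 times, while its level was highest in morulae and between 2.78 and 11.1 CPM at late blastocyst. The mean log2 difference was 0.69 (SD 0.23, SE 0.12, limma adjusted p = 0.0984). Cd209c passed with edgeR (adjusted p = 0.0213) and DESeq2 (adjusted p = 3.73e-06), and over all alternatives its adjusted p lay between 3.73e-06 and 0.84. In EB2 it was lower, at 18.8 CPM with Tdgf1 siRNA and 31.1 CPM with control siRNA, and with all 6 pairs the mean was 0.47 (adjusted p = 0.430).

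Several genes that were higher in all 5 pairs were also higher in EB2. Rgcc, a regulator of the cell cycle, stood at 11.8, 6.41, 15.3, 7.42 and 7.06 CPM with Tdgf1 siRNA and 4.39, 2.19, 13.1, 2.48 and 3.24 CPM with control siRNA (log2 0.68, adjusted p = 0.234, EB2 0.81). It was 2.18 to 2.998 times higher in M1, M2, LB1 and LB2 and 1.17 times higher in EB1. Pramel4, of the Prame family that is active in germ cells and early embryos, gave 0.19, 0.35, 0.53, 0.60 and 0.55 and 0.18 in EB2, and Cdc42ep5, an effector of the GTPase Cdc42, gave 0.32, 0.76, 0.23, 0.33 and 0.47 and 0.35 in EB2, as log2 differences. Rnd1, a protein that loosens cell adhesion, gave 0.19, 0.83, 0.52, 0.92 and 0.60 and 0.38 in EB2. These 4 genes had limma adjusted p = 0.179 to 0.234, and of them Pramel4 passed with DESeq2 (adjusted p = 0.0468, 0.0468 to 0.843 over all alternatives).

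The higher genes also held non-coding transcripts and predicted genes. Gm26917, annotated as a long non-coding RNA on chromosome 17, lies next to an annotated ribosomal RNA gene. It stood at 447, 589.8, 1031, 688 and 534 CPM with Tdgf1 siRNA and 249, 476, 351, 635 and 274 CPM with control siRNA. It was higher in each pair but spread widely, from 1.08 times in LB1 to 2.94 times in EB1 (log2 0.75, SD 0.57, SE 0.14, adjusted p = 0.131). RP23-81C12.2 moved with it in every pair (0.79, 0.39, 1.62, 0.12 and 0.91), while AY036118, which overlaps that ribosomal RNA gene, gave 0.24, -0.14, 0.80, 0.05 and 0.95. Whether these names count the same RNA, and the part of ribosomal RNA left in the libraries, was not tested. Gm10244, whose gene overlaps Mkrn1 on the opposite strand of chromosome 6, gave 0.47, 0.16, 0.57, 0.40 and 0.46 and 0.31 in EB2, and the counting of strand is not stated, so its reads cannot be told apart from those of Mkrn1. It passed with DESeq2 (adjusted p = 0.0134, 0.0134 to 0.736 over all alternatives). Gm5662 (0.72), Gm20678 (0.52), Gm11525 (0.46) and the processed pseudogene Gm5612 (0.36) complete the 12 genes of smallest p among those higher in all 5 pairs. Dbhos, an antisense gene on chromosome 2, gave 0.46, 0.89, 0.81, 0.41 and 0.17 and -0.62 in EB2 (limma adjusted p = 0.234), and passed with DESeq2 (adjusted p = 0.0495).

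**Figure D3:**
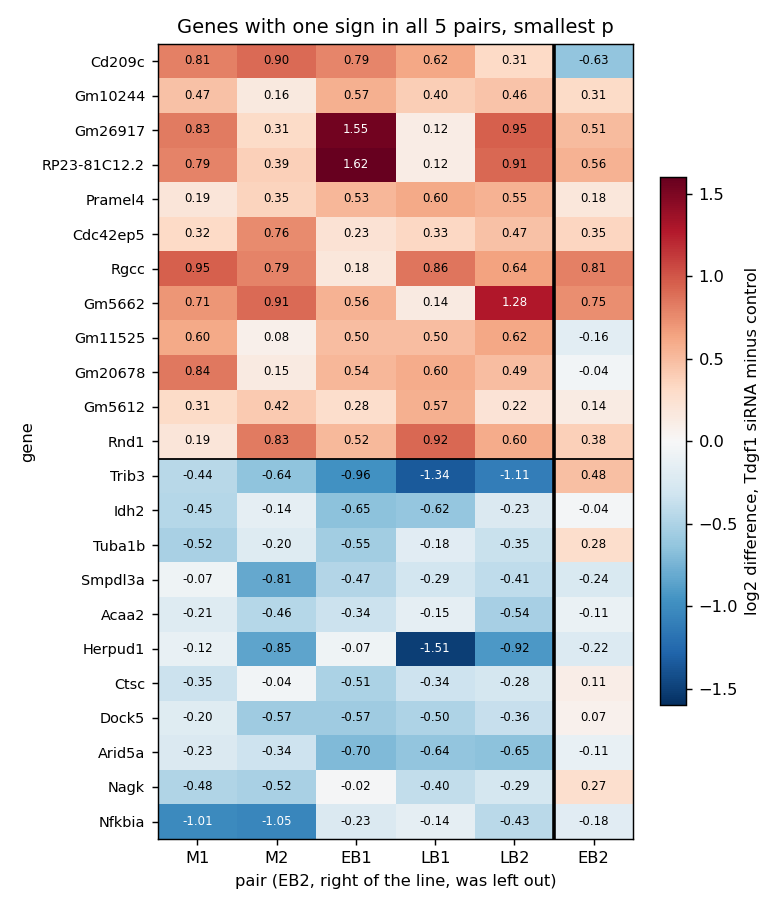
Log2 differences, Tdgf1 siRNA minus control, in each pair for the genes of smallest p among those with one sign in all 5 pairs, Tdgf1 left out, with EB2 right of the line. By construction the 5 pairs used have one colour in each row, and EB2 has the other sign in 3 of the 12 higher and 5 of the 11 lower genes.

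The lower side held 2 mitochondrial enzymes. Idh2 (chr7:80094846-80115392, minus strand), the isocitrate dehydrogenase that makes NADPH in mitochondria, stood at 51.3, 65.7, 104, 126 and 156 CPM with Tdgf1 siRNA, against 71.5, 72.97, 166, 195 and 183 CPM with control siRNA. It was lower in every pair, and at late blastocyst the groups did not overlap (log2 -0.42, SE 0.09, limma adjusted p = 0.234). In EB2 the 2 libraries differed by -0.04. It passed with DESeq2 (adjusted p = 0.0215, 0.0215 to 0.84 over all alternatives). Acaa2, the last enzyme of mitochondrial fatty acid oxidation, gave -0.21, -0.46, -0.34, -0.15 and -0.54, and -0.11 in EB2 (mean -0.34, adjusted p = 0.315).

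The tubulin gene Tuba1b gave -0.52, -0.20, -0.55, -0.18 and -0.35 and 0.28 in EB2, and Smpdl3a, which encodes a secreted phosphodiesterase, gave -0.07, -0.81, -0.47, -0.29 and -0.41 and -0.24 in EB2. Both passed with DESeq2 at adjusted p = 0.0484 and neither with limma (adjusted p = 0.234 and 0.235). Nfkbia, the inhibitor of NF-kappa-B that is itself induced by NF-kappa-B, stood at 5.18, 5.22, 6.56, 8.38 and 5.74 CPM with Tdgf1 siRNA and 14.1, 14.6, 8.35, 9.63 and 8.95 CPM with control siRNA. Its difference was widest at morula, where the groups stood apart by more than 2-fold (log2 -0.57, adjusted p = 0.382). The cathepsin gene Ctsc, the Rac activator gene Dock5, the DNA- and RNA-binding protein gene Arid5a and the sugar kinase gene Nagk were lower in all 5 pairs by means of -0.30, -0.44, -0.51 and -0.34. Of these, Arid5a was also lower in EB2 (-0.11), and Ctsc, Dock5 and Nagk were higher there (0.11, 0.07 and 0.27).

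The pathway of Tdgf1 itself could be followed only in part. Of 25 listed genes of Nodal, activin and TGF-beta signalling, 18 could be tested. Apart from Tdgf1 those with an unadjusted p under 0.05 were Foxh1, lower in all 5 pairs, and Smad3, higher in all 5. The higher share was 5.56%, against 5.63% of all genes. The 2 lower members were Tdgf1, lower by the choice of the pairs, and Foxh1. Their share (11.1%) therefore cannot be set against the 3.3% of all genes. Nodal was at most 1.94 CPM in any library and was not tested. Foxh1, the DNA-binding partner of Smad proteins, stood at 1.64, 0.549, 6.65, 12.9 and 20.7 CPM with Tdgf1 siRNA and 2.89, 2.57, 10.1, 16.04 and 21.2 CPM with control siRNA. The siRNA library was the lower one in each pair, narrowly so in LB2 (log2 -0.32, SE 0.14, adjusted p = 0.512, EB2 -0.13). Smad3 had a mean of 0.31 (adjusted p = 0.532), and Acvr2b, an activin receptor, gave -0.10, 0.24, -0.31, -0.58 and 0.14 (mean -0.12, adjusted p = 0.836). The list median was -0.01.

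The regulators of the epiblast showed no common direction that passed. Nanog, the factor that sets the epiblast apart, stood at 286, 403, 354, 115 and 95.9 CPM with Tdgf1 siRNA, against 349, 560.4, 292, 85.1 and 80.7 CPM with control siRNA. It was lower in both morula pairs and higher in EB1, LB1 and LB2 (mean log2 0.04, SE 0.11, adjusted p = 0.957; -0.06 to 0.16 when 1 pair was left out), and it was -0.02 in EB2. Pou5f1, which encodes Oct4, stood at 293, 265, 454, 148 and 147 CPM with Tdgf1 siRNA and 233, 261, 410.1, 108 and 133 CPM with control siRNA, higher in each pair by 1.02 to 1.37 times (log2 0.22, adjusted p = 0.480, EB2 0.12). Sox2, a partner of Oct4, gave -0.11, 0.19, 0.47, -0.11 and 0.92 (mean 0.27, adjusted p = 0.655), with levels under 3 CPM in all morula libraries.

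Of the 24 tested members of the epiblast and pluripotency list, 4 were higher (16.7%, against 5.63% of all genes) and 0 lower (against 3.3%) at an unadjusted p under 0.05, and 2 were higher in all 5 pairs (8.33%, against 5.64%). The 4 were Pou5f1, Utf1 (log2 0.23), Tbx3 and Esrrb, the last pair being factors that keep mouse embryonic stem cells undifferentiated. Tbx3 stood at 139.5, 182, 72.7, 44.95 and 47.8 CPM with Tdgf1 siRNA and 112, 153, 50.5, 41.6 and 37.7 CPM with control siRNA (log2 0.29, adjusted p = 0.413). Esrrb stood at 30.03, 26.2, 21.3, 11.3 and 10.7 CPM with Tdgf1 siRNA and 23.2, 26.3, 14.3, 6.78 and 5.94 CPM with control siRNA (log2 0.38, adjusted p = 0.434), level in M2 and higher in the other 4 pairs, and higher in EB2 as well (0.48). The list median was 0.07.

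Of the primitive endoderm markers Gata6, Sox17 and Gata4, read here in bulk samples, none passed with limma (adjusted p = 0.413, 0.735 and 0.804). Gata6 kept the same sign in the 5 pairs, while Sox17 and Gata4 varied in sign between pairs. Gata6, the first factor of this lineage, stood at 392, 456, 259.8, 284 and 245 CPM with Tdgf1 siRNA, against 378, 433, 207, 217 and 175 CPM with control siRNA. It was higher in each pair, by 1.04 to 1.40 times (log2 0.26, SE 0.08, adjusted p = 0.413), and was -0.05 in EB2. Sox17, which follows Gata6, was at or below 1.16 CPM in the morula and EB1 libraries. At late blastocyst it stood at 23.6 and 40.5 CPM with Tdgf1 siRNA, against 45.3 and 44.6 CPM with control siRNA, and in EB2 its log2 difference was 0.97. Gata4 stood at 7.86 and 26.4 CPM with Tdgf1 siRNA there, and 23.5 and 19.7 CPM with control siRNA, so the low value came from LB1.

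Of the 19 tested members of the primitive endoderm list, 1 was higher (Gata6, 5.26%, against 5.63% of all genes) and 3 were lower (15.8%, against 3.3%) at an unadjusted p under 0.05, with 0 past the adjusted threshold. The lower ones were the laminin gene Lamb1 (-0.36), the collagen chaperone gene Serpinh1 (-0.38) and Srgn (-0.41), which encodes a proteoglycan core. The list median was -0.10 and was -0.56 in LB1 alone, and without LB1 it was 0.03.

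The alcohol dehydrogenase gene Adh1 and the antisense gene Gm16559 overlap on opposite strands of chromosome 3, and their reads cannot be told apart. Both were named after their values were seen, Gm16559 as a gene that passed with edgeR. Gm16559 stood at 0.345, 0.641, 14.3, 114 and 228 CPM with Tdgf1 siRNA, against 0.187, 0.665, 47.04, 332 and 350.2 CPM with control siRNA. Adh1 stood at 0.604, 1.46, 68.2, 552 and 1153 CPM with Tdgf1 siRNA, against 0.840, 0.380, 251, 1464 and 1685 CPM with control siRNA. Both were at or below 1.46 CPM in morulae and were lower with Tdgf1 siRNA in EB1, LB1 and LB2. Gm16559 had adjusted p = 0.0379 with edgeR, 0.552 with DESeq2 and 0.385 with limma. Adh1, the more abundant of these overlapping genes from EB1 on, passed with none of them (adjusted p = 0.295 with edgeR, 0.866 with DESeq2 and 0.413 with limma). The mean log2 difference was -0.72 for Gm16559 and -0.70 for Adh1. With each stage weighted equally, where EB1 alone stands for its stage, it was larger, at -0.85 and -0.89. In EB2 both were lower too, at -0.27 and -0.40.

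The trophectoderm list was divided. Of 30 tested, 3 were higher (10%, against 5.63% of all genes) and 5 lower (16.7%, against 3.3%) at an unadjusted p under 0.05, and 0 passed the adjusted threshold. Of the regulators Cdx2 and Gata3, Cdx2 stood at 75.1, 45.6, 184, 111 and 143 CPM with Tdgf1 siRNA and 55.3, 52.3, 139, 108 and 91.6 CPM with control siRNA (log2 0.26, adjusted p = 0.512, EB2 0.45), and Gata3 at 93.6, 105, 282, 425 and 425 CPM with Tdgf1 siRNA and 71.8, 90.5, 232, 428 and 399 CPM with control siRNA (log2 0.18, adjusted p = 0.512). Each was higher in 4 of 5 pairs. The lower ones were Ctsc, the water and glycerol channel gene Aqp3 (-0.41), the keratin gene Krt7 (-0.45), the tight junction gene Cldn7 (-0.26) and Lgals3 (-0.38), while the tight junction gene Cldn6 was at 0.34. The list median was 0.02, with -0.34 in LB1.

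Signals between these cells were followed in the FGF and ERK, Wnt and Hippo lists. Over all genes 5.63% were higher and 3.3% lower at an unadjusted p under 0.05. In the FGF and ERK list 2 of 20 (10%) were higher and 0 lower by that threshold. The higher ones were the adaptor genes Frs2 (0.29) and Sos1 (0.19). Fgf4, the ligand that the epiblast sends to the primitive endoderm, had a mean of 0.04 (adjusted p = 0.962). In the Wnt list 1 of 16 (6.25%) was higher, Wnt7b (0.31), and 1 (6.25%) lower, Wls (-0.53), the carrier of Wnt proteins to the cell surface. Wls stood at 21.9 and 30.98 CPM with Tdgf1 siRNA at late blastocyst, against 58.6 and 52.99 CPM with control siRNA, and below 2 CPM in the earlier pairs. It passed with DESeq2 (adjusted p = 0.0484, 0.0484 to 0.843 over all alternatives). In the Hippo list 0 of 18 were higher and 1 (5.56%), the kinase gene Stk3 (-0.25), was lower.

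Genes of the response to RNA were also examined for a difference between the Tdgf1 and control siRNA groups. Both groups had received small RNAs and an mRNA, so a response common to both would not show here. Of 33 listed interferon and double-stranded RNA response genes only 10 could be tested, the others being too low. Of these 1, the ubiquitin ligase gene Trim25 (0.28), was higher at an unadjusted p under 0.05 (10%, against 5.63% of all genes). Of 20 genes of the RNA interference machinery, 1 was higher (5%, against 5.63% of all genes) and 1 lower (5%, against 3.3%). Ago2, whose protein cuts the target of an siRNA, stood at 370.4, 424, 311, 151 and 99.3 CPM with Tdgf1 siRNA and 377, 408, 180.3, 98.7 and 81.1 CPM with control siRNA (log2 0.34, adjusted p = 0.413), a difference found mainly in EB1 and LB1. Ago4 was lower in all 5 pairs (-0.14, -0.19, -0.62, -0.68 and -0.21, adjusted p = 0.448).

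In each of the next 7 lists at most 1 tested member was higher and at most 1 lower at an unadjusted p under 0.05. Over all genes 5.63% were higher and 3.3% lower, and the mean was negative for 5020 of 10751. In the cell cycle G2 and M list 0 of 30 were higher and 1 (3.33%) lower, Hmmr (-0.21), and 23 of 30 means were negative (median -0.09, against 0.01 for all genes). In the S phase list 22 of 33 means were negative (median -0.06), and 1 gene (3.03%), Mcm3, was higher (0.21). Lower in glycolysis was Tpi1 (-0.32), 1 of 18 (5.56%). Of 16 hypoxia genes Epas1, which encodes the hypoxia factor HIF-2-alpha, was higher (0.49, in 4 of 5 pairs) and Ddit4 lower (6.25% each). Of 15 heat shock genes 1 (6.67%), Hsph1 (0.17), was higher, and of 15 genes of DNA methylation 0 were higher or lower. Of 7 tested maternal transcripts 1, Ooep (-0.28), was lower (14.3%, against 3.3% of all genes).

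**Figure D4:**
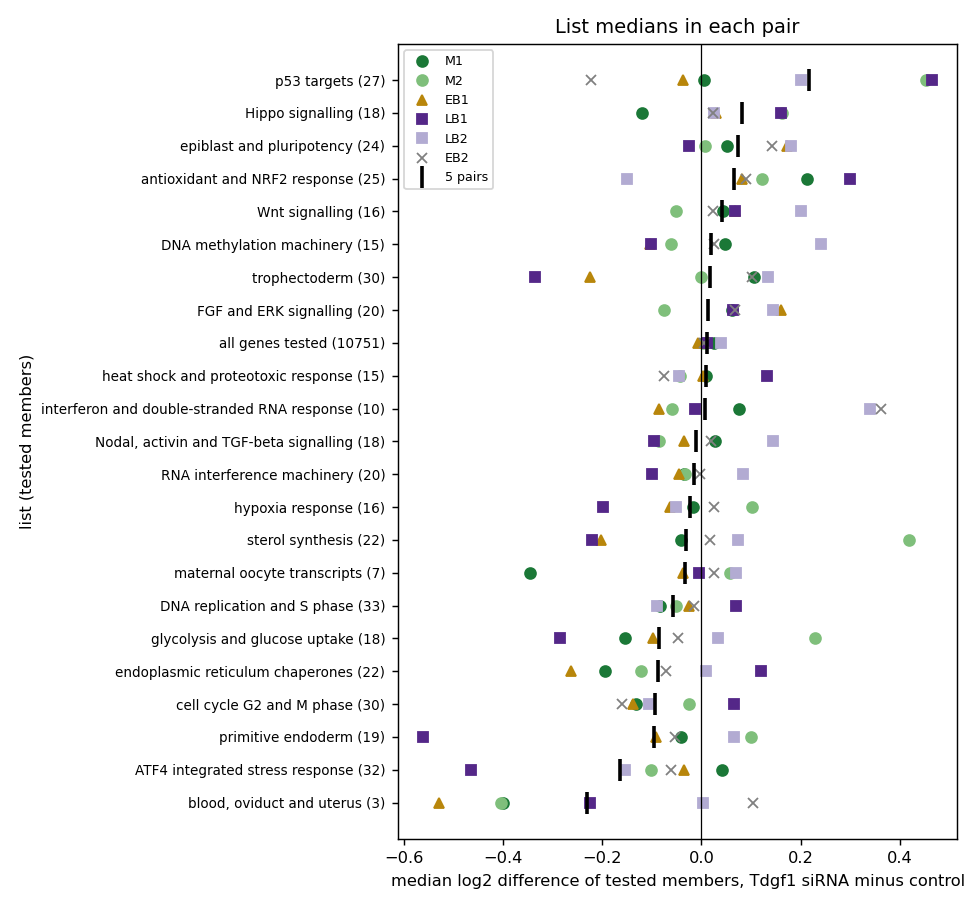
Median log2 difference, Tdgf1 siRNA minus control, of the tested members of each list in each pair, with a bar at the median of the 5-pair means and crosses for EB2. The p53 list lies furthest right, by M2 and LB1, and among lists of more than 3 tested members the ATF4 list lies furthest left, by LB1.

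Whether the within-pair difference itself differed between stages was tested for the late blastocyst pairs against the morula pairs, which share no library. Limma called 2 of 10751 genes (0.0186%), with an unadjusted p under 0.05 for 215 genes (2%) higher and 223 (2.07%) lower, while edgeR called 5 genes (0.0465%) and DESeq2 10 (0.093%). The siRNA library was higher in both morula pairs and lower in both late blastocyst pairs for 513 genes (4.77%), and the reverse held for 591 (5.5%). Ly6a (chr15:74994877-74998031, minus strand), which encodes the surface antigen Sca-1, stood at 402, 338, 266, 615 and 589.5 CPM with Tdgf1 siRNA, against 679, 440.2, 354, 325 and 318 CPM with control siRNA. The Tdgf1 siRNA library was lower in M1, M2 and EB1 and 1.89 and 1.85 times its control in LB1 and LB2, so that the groups did not overlap at either stage and lay in opposite order. The log2 difference was 1.46 larger at late blastocyst than at morula (SE 0.17, adjusted p = 0.00593). In EB2 the Tdgf1 siRNA library was the higher one, at 1070.1 CPM against 769.7 CPM with control siRNA, unlike in EB1. The adjusted p was 1.27e-12 to 0.734 over the alternatives, with 0.689 when the pairing was not used.

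4930550L24Rik (chrX:58909360-58920304, plus strand) is a protein-coding gene on the X chromosome, and it stood at 109, 118, 169, 3.32 and 17.7 CPM with Tdgf1 siRNA, against 29.6, 67.4, 116, 13.02 and 39.5 CPM with control siRNA. It was higher in M1, M2 and EB1 and lower in LB1 and LB2, the reverse of Ly6a, and in EB2 it was lower (-0.92). The difference between stages was -2.41 (SE 0.29, adjusted p = 0.00593, and 8.55e-16 to 0.9997 over the alternatives). Xist, expressed from the inactive X chromosome of female cells, stood at 317 to 394 CPM with Tdgf1 siRNA and 222 to 408 CPM with control siRNA. The sum of 4 Y-linked genes was 49.4 to 206 CPM with Tdgf1 siRNA and 28.3 to 247 CPM with control siRNA, so Xist and Y-linked transcripts were detected in every library, and the part of their mix in these differences was not tested.

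Asns, the asparagine synthetase gene and an ATF4 target, came next. It stood at 37.4, 27.9, 21.2, 64.2 and 83.5 CPM with Tdgf1 siRNA, against 20.2, 24.1, 29.02, 149 and 166 CPM with control siRNA. At morula it was higher with Tdgf1 siRNA, narrowly in M2, and at late blastocyst it stood at 0.43 and 0.50 of its control, a stage difference of -1.55 (SE 0.25, adjusted p = 0.0819). Dppa1 (log2 -1.15, adjusted p = 0.0999) was more than 2 times higher with Tdgf1 siRNA in both morula pairs and near its control at late blastocyst. In EB2 the log2 differences were -0.07 for Asns and 0.18 for Dppa1. Asns and Dppa1 passed with edgeR (adjusted p = 0.0431 each) and DESeq2, over ranges of 1.26e-05 to 0.734 and 2.34e-06 to 0.9997. Of the other genes that passed with a count-based tool, the pseudogene Gm8399 did so with edgeR (adjusted p = 0.0431) and DESeq2 and was higher at late blastocyst and lower at morula with Tdgf1 siRNA, at 3.04 CPM or less in every morula library. Atp1b1, B3gnt5, Gsta4, Pgm2 and Spp1 passed with DESeq2 only (adjusted p = 0.0156 to 0.0412). DESeq2 gave them stage differences of -1.11, -1.75, -1.02, -3.19 and -1.58. Limma gave -1.02, -1.04, -0.96, -1.31 and -0.83 (adjusted p = 0.183 to 0.730). In the morula controls Pgm2 was at 0.373 and 0.475 CPM, Spp1 at 4.20 and 0.760 and B3gnt5 at 2.15 and 1.52. Within-pair log2 differences in LB1 and LB2 were -0.31 and -0.21 (Atp1b1), -0.86 and -0.13 (B3gnt5) and -0.60 and -0.35 (Gsta4). For Pgm2 they were -0.61 and -1.03, and for Spp1 0.01 and -0.13. Ly6e (2.15) and Dynlt1a (1.46), the next on the higher side, had adjusted p = 0.512 each.

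**Figure D5:**
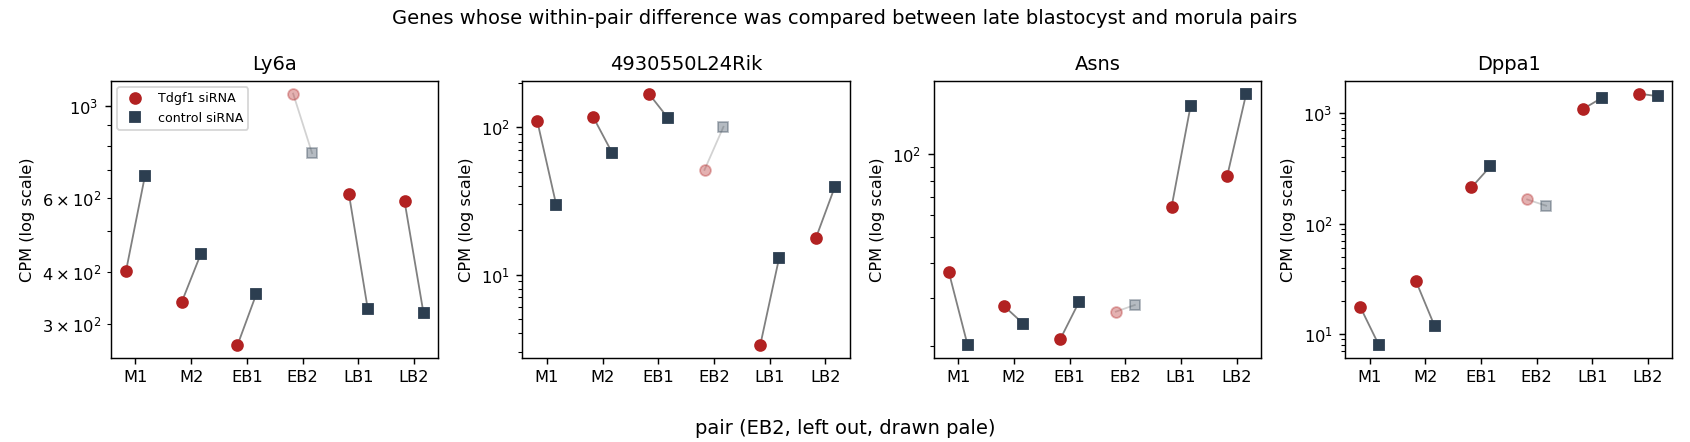
Levels in CPM on a log scale of Ly6a, 4930550L24Rik, Asns and Dppa1 in each library, with the Tdgf1 siRNA library left of its control in each pair and EB2 drawn pale. In Ly6a the siRNA library is the lower one in the morula pairs and the higher one in the late blastocyst pairs, and in 4930550L24Rik and Asns the order is the reverse.

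Markers of other cells were detected in both groups, many of them at low levels. The 10 cumulus and granulosa cell markers summed to 23.2 to 99.9 CPM with Tdgf1 siRNA and 27.9 to 97.6 CPM with control siRNA. Of them 7 stayed below 1 CPM in all 10 libraries, so the sum rests on the others. It was highest at late blastocyst, at 99.9 and 78.2 CPM with Tdgf1 siRNA and 97.6 and 95.6 CPM with control siRNA. The source of these reads was not tested. The 12 markers of blood, oviduct and uterus summed to 27.1 to 45.4 CPM with Tdgf1 siRNA and 29.1 to 55.6 CPM with control siRNA, with Hbb-bt at 0 reads throughout. Of these 12 markers, 5 stayed below 1 CPM in all 10 libraries, so this sum too rests on the others. Vim stood at 0.863 to 28.7 CPM and Pecam1 at 11.2 to 20.3 CPM, and the source of their reads was not tested. Vim, of the cytoskeleton of mesenchymal cells, was lower in all 5 pairs (-0.64, -0.40, -0.53, -0.50 and -0.09, adjusted p = 0.413). Reads of members of gene families with near-identical copies, among them Tuba1b, Ftl1, Fth1, Pramel4, Gm5662 and Dynlt1a, may be divided between copies, and their values are uncertain to that extent. The embryo markers Pou5f1, Cdx2 and Gata3 were present in each of the 10 libraries. These libraries held 10524640 to 12964712 reads on genes, and a gene with 0 reads may still be present at up to 0.231 to 0.285 CPM (3 reads, counting error only).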

How the data were processed

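Embryo RNA was amplified with Clontech's SMARTer Ultra Low Input chemistry and made into libraries with NEBNext Ultra, per the labels' protocols. No strand is stated there, so sense and antisense reads at one locus were treated as inseparable. The submitters' processing notes name HISAT2 2.1.0, Cufflinks, HTSeq, edgeR and the mm10 build without saying what each was used for. The 1 table deposited by the authors has 43472 genes under RPKM headings, but every column sums to 279173.646 and 100% of values are whole multiples of 1 step within 0.01 reads. The deposited values are therefore CPM divided by 3.582, and they gave back whole reads, 10524640 to 13770264 per library. The design had assumed RPKM, and its log-scale test suits CPM too. Reads copied by amplification, with no molecular identifiers, do not count independent molecules, so limits from counts cover counting error only. Of all names, 39368 (90.6%) matched GENCODE M21, which gave coordinates (1-based, GRCm38). There were 27 names turned into dates and 2 duplicated names, kept as deposited, and all 37 names of mitochondrially encoded genes were at 0 reads.

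Within-pair differences of log2(value + 1) in the deposited unit were analysed in R 4.3.3 by limma 3.58.1, with eBayes and a variance trend, over the 10751 genes that averaged 1 deposited unit or more across the 12 libraries (residual degrees of freedom 4, prior 12.38). The test used Benjamini-Hochberg adjustment at 0.05. The late blastocyst minus morula contrast had 2 residual degrees of freedom (prior 11.84). Alternatives were edgeR 4.0.16 and DESeq2 1.42.0 on whole reads, TMM and quantile scaling, pseudocounts of 0.1 and 5, no filter and a filter at 5, no pairing, all 6 pairs, equal weight per stage, no variance trend and leaving out each pair. DESeq2's missing adjusted p-values were left missing. The scripts were tested on simulated data. Tables and plots used Python 3.11.15, pandas 2.3.3 and matplotlib 3.10.9.

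The rule of the comparison prescribes the pairing. Deviations of same-numbered libraries from their group means correlated at 0.458 (morula), 0.593 (early blastocyst) and 0.101 (late blastocyst) over genes, all above 0.1, and libraries were treated as paired by number. This rests on the data, as no label states a common litter or day. No 2 libraries of a group were alike within read sampling noise (chi-square per gene 17.0 to 41.1). The pairs, the 23 gene lists and the tests were chosen with earlier results of these data known, so lists are given as counts and medians without a test of their own. Named were the 12 genes of smallest p in each direction with one sign in all 5 pairs, the 4 with the largest mean in each direction, the 2 of smallest p in each list, the 3 of smallest p in each direction of the stage contrast, and 12 fixed genes. Genes that only edgeR or DESeq2 called, AY036118 and further list members were named after their values were seen. The counts of the sterol synthesis list are not reported here.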

Additional observations from a re-analysis of the deposited data

Results flagged for a closer look

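Among the 77 named genes tested, 2 had 1 pair far from the other 4 by Dixon's gap test (95% level), which chance alone passes in about 1 of 20 groups. For Gm11525 this was M2, with a log2 difference of 0.080, against 0.60, 0.50, 0.50 and 0.62 in the other pairs. For Sox17 it was LB1, with -0.85, against 0.07, 0.04, -0.11 and -0.13 in the other pairs, of which the first 3 rest on levels at or below 1.16 CPM.

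The difference between late blastocyst and morula pairs was itself past the limma threshold for 2 genes. Ly6a differed by 1.46 on the log2 scale, from within-pair differences of 0.91 and 0.88 at late blastocyst and -0.75 and -0.38 at morula. 4930550L24Rik differed by -2.41, from -1.27 and -1.01 at late blastocyst and 1.77 and 0.77 at morula.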

How the results depend on the processing

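The count over 5 pairs, 0 genes with limma, stayed 0 with TMM and quantile scaling, both other pseudocounts, both other filters, no variance trend, no replicate block (607 genes at an unadjusted p under 0.05) and all 6 pairs. It was 4 with edgeR and 12 with DESeq2 (3 and 11 without Tdgf1) and 9 with each stage weighted equally, and 0 to 4 when 1 pair was left out. It was 4 without LB1, namely Gm26917, Gm17167, RP23-81C12.2 and Slc38a6, and 3 without LB2, namely Cd209c, Aqp3 and Tdgf1, which chose the pairs. The cause of these changes was not tested.

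The count between stages, 2 genes, was 2 with quantile scaling and a filter at 5, 3 with a pseudocount of 0.1, 4 with TMM scaling, 1 with a pseudocount of 5, 0 with no filter, 5 with edgeR, 10 with DESeq2 and 0 with no replicate block, and 2 to 121 when 1 pair was left out. It was 31 without M1, 14 without M2, 46 without LB1 and 121 without LB2, where the lone pair of a stage is assumed to vary like the others, so these fits say little about stability. With no filter 32486 genes were tested.

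Of 1270 values of 77 single-gene results, 1221 kept their side of the threshold and their sign, 38 passed where limma had not, 5 were lost (Ly6a and 4930550L24Rik between stages) and 6 changed sign. The last were means near 0 when 1 pair was left out: Nanog -0.060 to 0.16, Gata4 -0.34 to 0.064 and Fgf4 -0.047 to 0.14. All 198 alternative medians of 22 lists lay within 1 SD of the pair medians. That SD is wide, with pair medians of the primitive endoderm list from -0.56 in LB1 to 0.10 in M2, so this says little about stability. Without LB1 the median of that list changed sign and that of the ATF4 list shrank, as given above. No scaling moved the median of all genes by over 0.1. With 5 pairs, Trib3 and Cd209c reversed in EB2, so their values hold for the pairs chosen by Tdgf1, and late blastocyst pairing, at a correlation of 0.101, is uncertain.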
